A study of Mus musculus with 9 samples.

Results

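The genes described here make cholesterol and fatty acids, control that synthesis or carry its product, and 31 mouse genes were taken by name for these roles. Every probe set whose platform annotation gives 1 symbol, and that symbol one of these genes, was used. This gave 58 probe sets for 29 genes, 10 of them with 1 probe set and 19 with several. A gene was represented by its probe set with the highest mean signal, and the others served as a check. Insig1 and Acat2 had no probe set by this rule, so their expression was not analysed here, and they enter only the promoter counts. Of the 29 genes, 26 passed the filter on low signals and were tested among 7487 genes. Hsd17b7, Acaca and Fads2 had a probe set but were not tested.

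Total RNA of the lateral nasal gland, a secretory gland of the nasal cavity, was measured on 9 one-colour Affymetrix arrays. There were 3 arrays of Cyp2g1-null mice on a mixed 129/Sv x C57BL/6 background, 4 of wild-type B6 (C57BL/6) mice and 2 of wild-type 129/Sv mice. All mice were male and 2 to 3 months old, and each array held RNA pooled from the glands of 10 mice, so the spread is between pools and not between animals. Cyp2g1 encodes a cytochrome P450 of the nasal mucosa, and both strains served as controls because the null line carries alleles of each.

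Mammalian cells build cholesterol from acetyl-CoA through mevalonate, farnesyl diphosphate, squalene and lanosterol. SREBP2, the product of Srebf2, drives transcription of most enzymes of this route when membrane cholesterol is low, and SREBP1, the product of Srebf1, drives mainly the fatty acid genes. Fatty acids are made from citrate-derived acetyl-CoA by Acly, Acaca and Fasn, and are then lengthened by Elovl enzymes and desaturated by Scd and Fads enzymes. Secretory glands use these lipids for the membranes of their granules.

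Values are MAS5 signals on a linear scale, and array medians ran from 518.5 to 550. Fold changes are differences of log2(signal + 16), a scale that makes changes of dim genes look smaller than they are. A gene passed when its two-sided adjusted p from limma was under 0.05 after Benjamini-Hochberg adjustment over all 7487 genes. Cyp2g1 had signals of 55.7, 140.6 and 201.1 in null glands, 5916.8, 748.2, 2006.9 and 2799.4 in B6 glands and 207.5 and 981.2 in 129/Sv glands. No source used here says whether its probe set lies in the deleted part. Obp1a, an odorant-binding protein that marks this gland, had signals from 112206.1 to 150146.2 over all arrays. The 10 gland secretory markers on the array summed to 617086.5 to 740662.3 in null glands, 503478.4 to 581756.2 in B6 glands and 461809.9 to 486352.5 in 129/Sv glands. By this sum every null array lay above every wild-type array. Car6, 1 of the 10, had 29312.4 to 70057.5 in null glands, 387.5 to 8017.5 in B6 glands and 10385.4 and 66481.3 in 129/Sv glands. Of the sums, Car6 gave 64428.1 of 628390.1 on null array 1 and 7400.6 of 581756.2 on B6 array 4. Without Car6, null array 1 would lie below B6 array 4, so the separation of the sums depends on it. Of the 9 tested, 2 were higher in null than in B6 glands, Car6 (log2 fold change 4.70) and Dmbt1 (0.62), beside 1.43% of all genes. Lower were 2, Lcn3 (-1.12) and Agr2 (-1.07), beside 1.42%. Against 129/Sv 2 were higher, Scgb1b27 (2.66) and Scgb2b27 (2.04), beside 1.44%. Neither of these passed against B6 (0.51 and 0.72, adjusted p = 0.0797 and 0.0667). In B6 against 129/Sv 3 were higher, beside 2.91% of all genes. These were Scgb1b27, Scgb2b27 and Agr2 (2.15, 1.33 and 0.71). Adipoq, a defining adipocyte gene, lay between 10.5 and 184.7 and under the array median on every array. Of 10 adipocyte markers on the array, 2 were tested, Fabp4 and Lpl, and 0 of them passed in any comparison. The summed adipocyte signal ran from 3219.7 to 3517.9 in null glands, from 2839.3 to 3366.2 in B6 glands and from 2771.4 to 3112.4 in 129/Sv glands. Of 6 sebaceous gland markers on the array, 1 was tested, Mgst1, a glutathione transferase found in many cell types. The summed sebaceous signal ran from 10848.3 to 13492.5 in null glands, from 6446.2 to 7942 in B6 glands and from 16075.5 to 18572.6 in 129/Sv glands. Mgst1 gave 10030.2 to 12275.4 of it in null glands, 5266.8 to 6380.1 in B6 glands and 15063.3 to 17124.9 in 129/Sv glands. It passed in null glands against B6 (log2 fold change 0.90) and against 129/Sv (-0.57). Between the strains it was lower in B6 than in 129/Sv glands (-1.47, adjusted p = 3.27e-06). The defining sebaceous markers Mc5r and Krt79 were under the array median on every array. The 7 cartilage and bone markers on the array summed to 10672.2 to 13164.3 in null glands, 13000.6 to 16838.6 in B6 glands and 10944.8 to 11989.6 in 129/Sv glands. Of the 3 tested 0 passed in limma, with 2 at an unadjusted p under 0.05 against B6 (66.7%, beside 15% of all genes). The part of these cell types in the results that follow was not tested.

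Few lipid synthesis genes passed between null and wild-type glands, and those that did also differed between the wild-type strains. Against B6, 2 of the 26 tested genes passed (7.69%), Stard4 higher and Sc5d lower in null glands, where 2.84% of all genes passed (1.43% higher, 1.42% lower). Against 129/Sv, 1 of 26 passed (3.85%), Elovl5, which was lower, where 2.2% of all genes passed (1.44% higher, 0.761% lower). No member passed against both strains, where 0.2% of all genes did (0.12% higher, 0.0801% lower). Against the mean of both strains 0 of 26 passed in limma, where 1.28% of all genes did (0.788% higher, 0.494% lower). At an unadjusted p under 0.05 this contrast held 3 of the 26 (11.5%), Elovl5, Elovl6 and Srebf2, beside 12.4% of all genes. Elovl6 was tested only through 2 null arrays, the group where it is high, so its place in this count is no independent result. Between the wild-type strains, 3 of 26 passed (11.5%), Sc5d higher and both Stard4 and Elovl5 lower in B6, where 5.44% of all genes passed (2.91% higher, 2.52% lower). These are the genes that passed in the null comparisons. The comparisons share arrays, so their calls are not independent of each other.

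**Figure D1:**
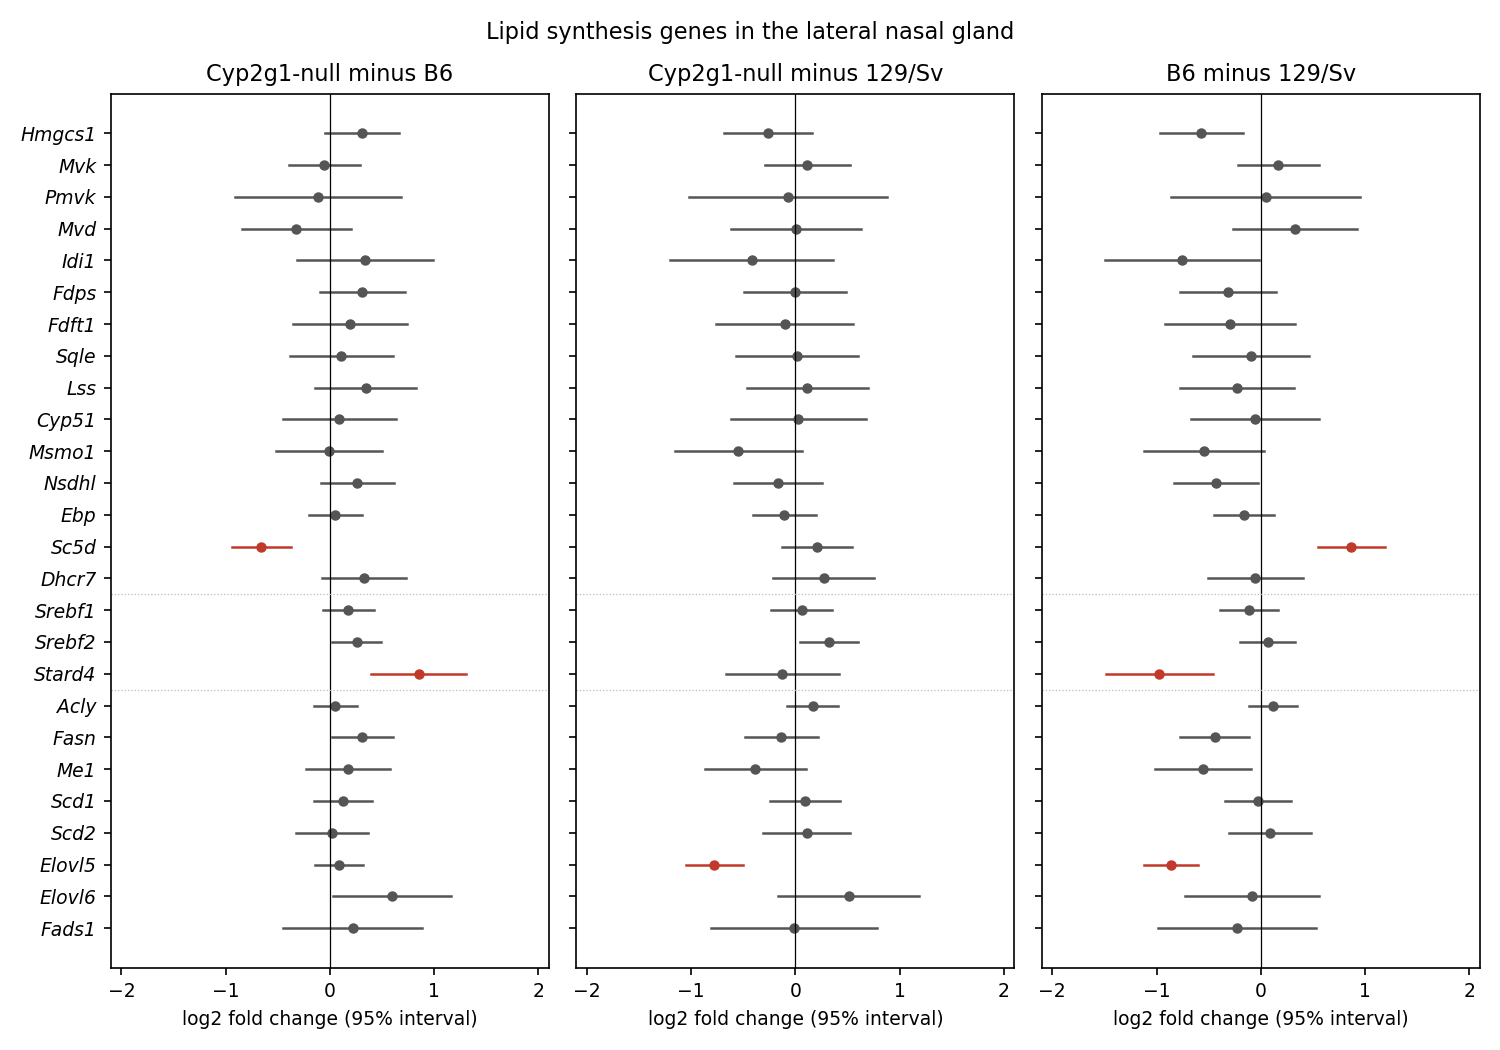
Log2 fold changes on the log2(signal + 16) scale with 95% intervals from limma, for the 26 tested genes in the order of sterol synthesis, regulation and transport, and fatty acids. Red marks genes with an adjusted p under 0.05, which are Sc5d and Stard4 in the left and right panels and Elovl5 in the middle and right panels.

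Stard4, a soluble carrier that moves cholesterol between membranes and is itself a target of SREBP2, was the tested member with the largest difference between null and B6 glands. Its signals were 894.6, 1438.7 and 985.5 in null glands, 663.8, 500.8, 722.5 and 516.3 in B6 glands and 1034.1 and 1352.7 in 129/Sv glands. Every null and every 129/Sv array lay above every B6 array, and null and 129/Sv arrays overlapped. Stard4 rose 1.8-fold in null against B6 glands (log2 fold change 0.85, SE 0.211, adjusted p = 0.0469). Against 129/Sv the log2 fold change was -0.13 (95% interval -0.67 to 0.41, adjusted p = 0.903). B6 glands had 1.97-fold less than 129/Sv glands (adjusted p = 0.0265, log2 fold change -0.98, SE 0.239). A second Stard4 probe set had 605.2, 773.5 and 479.9 in null glands, 133.2, 141.4, 133.6 and 201.2 in B6 glands and 416.2 and 702 in 129/Sv glands, with the B6 arrays again below all others. Taken by itself among single probe sets, it gave log2 fold changes of 1.91 for null against B6 (adjusted p = 0.0166) and -1.75 for B6 against 129/Sv (adjusted p = 0.0305). Its B6 signals were under the array medians, so the size of these folds is uncertain. It exceeded the array median on 3 arrays, none of them B6. It was thus tested only through the groups where it is high, and its calls are no independent result. The brightest probe set's call against B6 held in 8 of 22 other settings. Among arrays left out, it was lost without null array 1, 2 or 3 (adjusted p = 0.0683, 0.243 and 0.108), without B6 array 2 or 4 (0.106 and 0.118) and without 129/Sv array 1 or 2 (0.0587 and 0.0601). The strain call was lost without B6 array 2 or 4 (0.0576 and 0.0546) and without 129/Sv array 1 or 2 (0.0746 and 0.291), and with no filter on low signals (0.055).

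Sc5d, the lathosterol oxidase near the end of cholesterol synthesis, showed the opposite order of the strains. Its signals were 1405.7, 1753.6 and 1796.8 in null glands, 2539.2, 2639.6, 2749.6 and 2483.7 in B6 glands and 1235 and 1629.7 in 129/Sv glands. The B6 arrays lay above all others, and null and 129/Sv arrays overlapped. Sc5d fell 1.58-fold in null against B6 glands (log2 fold change -0.66, SE 0.131, adjusted p = 0.0142). B6 glands had 1.82-fold more than 129/Sv glands (adjusted p = 0.00297, log2 fold change 0.87, SE 0.149). Against 129/Sv the log2 fold change was 0.21 (95% interval -0.13 to 0.55, adjusted p = 0.671). Its second probe set, under the array median on every array, did not separate null from B6 glands, with 347.6, 348.3 and 219.7 in null glands, 324.2, 268.7, 455.8 and 241.3 in B6 glands and 204.2 and 239.5 in 129/Sv glands. The call against B6 was lost without null array 1 (adjusted p = 0.0884), and the strain call without 129/Sv array 1 (adjusted p = 0.0709).

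Elovl5, the elongase of polyunsaturated fatty acids, was the member on which null glands differed from 129/Sv. Its signals were 3105.9, 3446.4 and 3649.2 in null glands, 3259.9, 3051.1, 2959.9 and 3514.2 in B6 glands and 5343.6 and 6341.3 in 129/Sv glands. Null and B6 arrays overlapped, and both 129/Sv arrays lay above all of them. Elovl5 fell 1.71-fold in null against 129/Sv glands (log2 fold change -0.78, SE 0.128, adjusted p = 0.00475). B6 glands had 1.82-fold less than 129/Sv glands (adjusted p = 0.000601, log2 fold change -0.86, SE 0.121). Against B6 the log2 fold change of null glands was 0.09 (95% interval -0.14 to 0.32, adjusted p = 0.742). The second probe set had 1144.1, 1157.9 and 1368.1 in null glands, 803, 940.1, 1475.5 and 1987.5 in B6 glands and 1810.5 and 2997.8 in 129/Sv glands. Its log2 fold change of -0.93 for null against 129/Sv did not pass among single probe sets (adjusted p = 0.204). Nor did its -0.92 for B6 against 129/Sv (adjusted p = 0.107). The call of the brightest probe set against 129/Sv did not hold without 129/Sv array 2 (adjusted p = 0.102) or with the mean of both probe sets (adjusted p = 0.0522). Its strain call held in all 23 other settings.

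**Figure D2:**
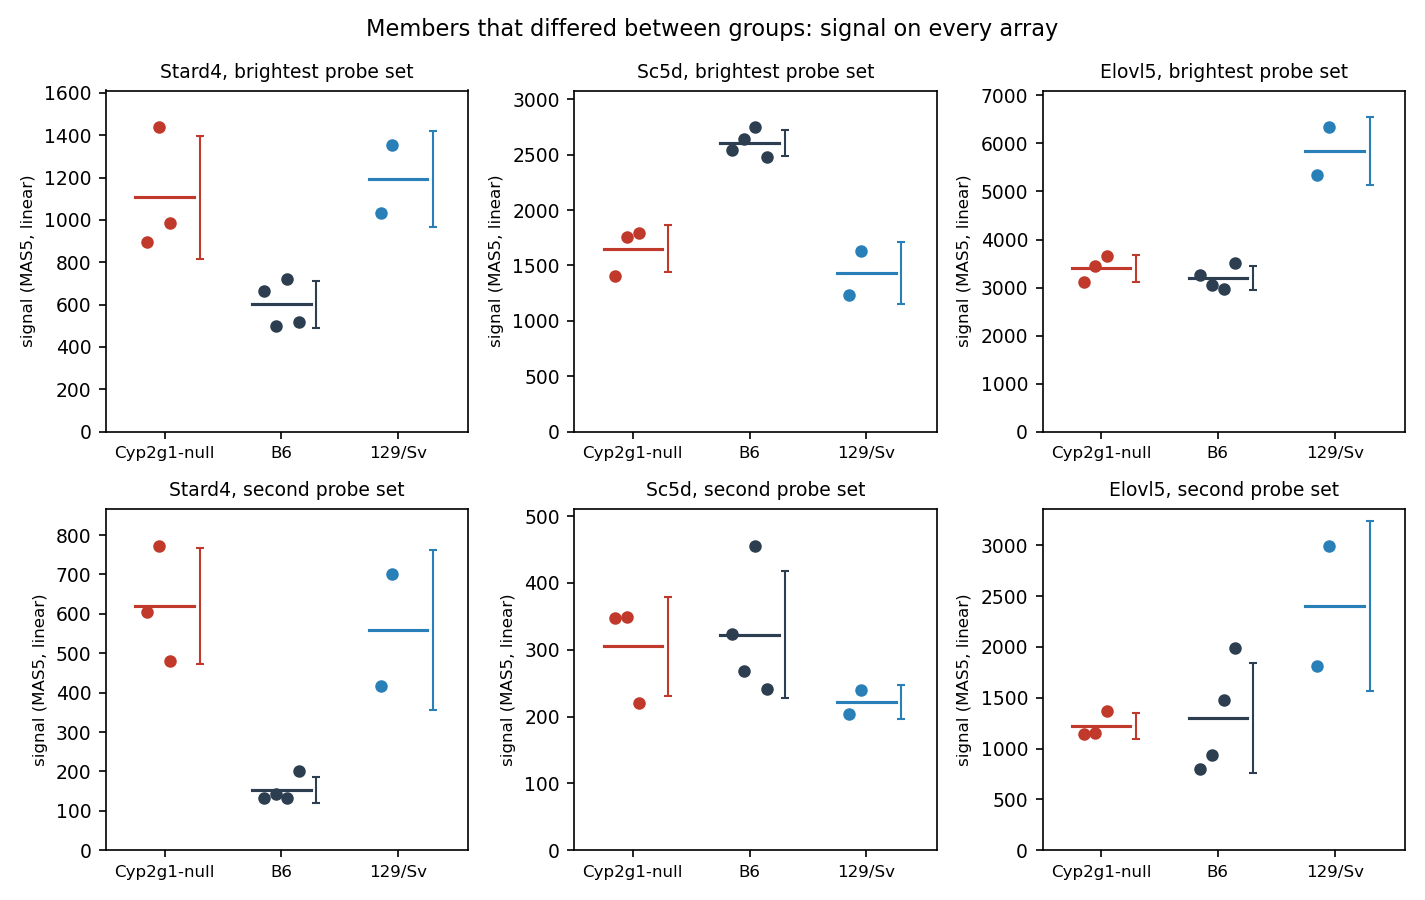
MAS5 signal on a linear axis for both probe sets of Stard4, Sc5d and Elovl5, with 1 point per array, the group mean as a line and the SD as a bar. In the upper row null glands lie with 129/Sv for Stard4 and Sc5d and with B6 for Elovl5, and the second probe set again has B6 lowest for Stard4 but does not separate null from B6 glands for Sc5d.

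Promoters are shown for Hmgcs1, whose window held the sterol element described here, for Idi1 and Msmo1, the sterol synthesis genes that deviated most on 1 null pool (below), and for Sc5d and Elovl5, which differed between the strains. They come from RefSeq on build GRCm38.p6, run from 250 bases before to 50 bases after the gene's start, and are written 5′ to 3′ on the gene's strand. Of the 31 genes, 24 had an entry, with 30 windows in all. Capitals mark 3 motifs searched on both strands. The first, TCACNCCAC, is the core of a sterol regulatory element, which SREBPs bind. The NF-Y box is written CCAAT, which on the opposite strand of the window reads ATTGG. The palindrome searched as an E-box is CACGTG. No match overlapped another in the windows printed. The windows are chr13:119690101-119690400 (plus strand) for Hmgcs1, chr13:8885356-8885655 (plus) for Idi1, chr8:64733529-64733828 (minus) for Msmo1, chr9:42264251-42264550 (minus) for Sc5d and chr9:77917115-77917414 (plus) for Elovl5.
Hmgcs1: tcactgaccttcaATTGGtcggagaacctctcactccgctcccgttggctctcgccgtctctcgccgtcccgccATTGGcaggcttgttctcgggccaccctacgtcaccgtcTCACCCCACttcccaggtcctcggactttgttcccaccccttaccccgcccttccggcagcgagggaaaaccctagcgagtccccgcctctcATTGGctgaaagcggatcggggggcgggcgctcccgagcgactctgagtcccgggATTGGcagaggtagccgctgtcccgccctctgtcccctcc
Idi1: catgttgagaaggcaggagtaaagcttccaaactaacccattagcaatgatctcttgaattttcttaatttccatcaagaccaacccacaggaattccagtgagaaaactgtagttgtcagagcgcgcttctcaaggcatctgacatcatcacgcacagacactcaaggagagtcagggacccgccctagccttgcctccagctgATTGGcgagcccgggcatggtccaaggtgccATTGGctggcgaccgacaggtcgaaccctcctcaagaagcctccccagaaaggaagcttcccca
Msmo1: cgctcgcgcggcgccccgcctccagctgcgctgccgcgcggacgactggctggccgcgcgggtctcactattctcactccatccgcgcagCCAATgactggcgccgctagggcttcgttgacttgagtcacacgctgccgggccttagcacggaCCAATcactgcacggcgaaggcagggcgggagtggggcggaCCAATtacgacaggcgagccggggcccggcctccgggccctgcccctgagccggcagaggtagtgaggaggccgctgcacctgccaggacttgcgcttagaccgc
Sc5d: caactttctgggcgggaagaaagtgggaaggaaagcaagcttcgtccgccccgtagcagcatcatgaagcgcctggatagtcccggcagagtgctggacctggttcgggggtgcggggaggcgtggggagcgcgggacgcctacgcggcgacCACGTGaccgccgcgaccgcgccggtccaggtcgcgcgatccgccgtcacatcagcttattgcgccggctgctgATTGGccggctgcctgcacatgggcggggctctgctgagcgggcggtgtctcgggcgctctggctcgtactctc
Elovl5: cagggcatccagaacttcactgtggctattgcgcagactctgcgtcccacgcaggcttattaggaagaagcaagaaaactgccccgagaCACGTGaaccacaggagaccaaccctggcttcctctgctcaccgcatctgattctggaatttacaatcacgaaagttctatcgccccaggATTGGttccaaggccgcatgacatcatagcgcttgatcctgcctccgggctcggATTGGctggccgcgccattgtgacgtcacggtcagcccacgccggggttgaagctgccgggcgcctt

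At least 1 NF-Y box lay in the window of 20 of the 24 genes (83.3%), beside 41.1% of the 27025 genes with a window. Counted by window it was in 21 of 30, beside 37.4% of all windows. Hmgcs1 held 4, Msmo1 held 3 and Idi1 held 2, of which 1 in Hmgcs1 lay after the start. The exact sterol element core was found in the window of 1 of the 24 genes, Hmgcs1, 137 bases before the start, beside 1.44% of all genes with a window. An E-box lay in the windows of 5 of the 24 genes (20.8%), Dhcr7, Elovl5, Hsd17b7, Insig1 and Sc5d, beside 8.09% of all genes. By window these shares over all genes were 1.24% for the sterol element and 7.15% for the E-box. The matches are letters in these windows and do not show binding.

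The enzymes from acetyl units to squalene did not pass in any comparison, with 7 tested of 8 listed. Hmgcs1, which makes HMG-CoA, had signals of 3476.8, 4281.7 and 4172.9 in null glands, 4371.1, 3161.6, 3140.5 and 2405.9 in B6 glands and 4356.4 and 5190.2 in 129/Sv glands. Null glands lay within the range of the wild-type arrays. Its log2 difference was 0.31 against B6 (95% interval -0.04 to 0.66, adjusted p = 0.4) and -0.26 against 129/Sv (95% interval -0.68 to 0.16, adjusted p = 0.669). Its difference between B6 and 129/Sv turned with the probe set, from -0.57 in the brightest to 0.14, 0.20 and 0.64 in the other probe sets. Idi1, the isopentenyl diphosphate isomerase, spread widely within groups, with 694.3, 1134.4 and 462 in null glands, 827.5, 402.3, 577.8 and 514.8 in B6 glands and 799.6 and 1157.1 in 129/Sv glands. All groups overlapped on Idi1, with log2 fold changes of 0.34 against B6 (adjusted p = 0.635) and -0.42 against 129/Sv (adjusted p = 0.723). Fdps, which makes farnesyl diphosphate, had 3760.4, 4022.6 and 3035.3 in null glands, 4130.6, 2872.4, 2158.4 and 2693.7 in B6 glands and 3024.8 and 4269.1 in 129/Sv glands. Fdft1, the squalene synthase, had 2192.4, 2645.4 and 1320.3 in null glands, 2703.8, 1152.5, 1715.3 and 1650.1 in B6 glands and 2290.1 and 1954.7 in 129/Sv glands. The adjusted p-values against B6 were 0.469 for Fdps and 0.77 for Fdft1. The mevalonate kinase Mvk, the phosphomevalonate kinase Pmvk and the decarboxylase Mvd had negative log2 fold changes against B6, of -0.05, -0.12 and -0.32 (adjusted p = 0.911, 0.917 and 0.568). Pmvk and Mvd exceeded the array median on 4 of the 9 arrays, and signals this low give wide intervals (-0.91 to 0.68 for Pmvk against B6).

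From squalene to cholesterol, 8 of 9 listed enzymes were tested, and Sc5d was the one that passed. Sqle, the squalene epoxidase and a rate-limiting step of the route, had 1482.7, 2349.5 and 1283.4 in null glands, 2241.5, 1346.4, 1541.8 and 1166.6 in B6 glands and 1420.6 and 1870.3 in 129/Sv glands. Its group means differed little beside this spread (1705 ± 566.8 in null, 1574 ± 470.6 in B6 and 1645 ± 318 in 129/Sv glands, SD, n = 3, 4 and 2). Msmo1, the sterol C4-methyl oxidase, had 1240, 2696.4 and 1249.1 in null glands, 2051.8, 1484.6, 1457 and 1537.3 in B6 glands and 2747.1 and 2034.9 in 129/Sv glands. Null array 2 lay far above the other null arrays, and the adjusted p was 0.996 against B6 and 0.482 against 129/Sv. Dhcr7, which makes cholesterol from 7-dehydrocholesterol, had 1771.7, 1795.1 and 1026.4 in null glands, 1087.8, 1332.2, 1278.8 and 1051.8 in B6 glands and 1298 and 1156.4 in 129/Sv glands. Null arrays 1 and 2 were above all wild-type arrays and null array 3 below all of them, with a log2 fold change of 0.30 against the mean of both strains (95% interval -0.08 to 0.68, adjusted p = 0.529). The lanosterol synthase Lss, the lanosterol demethylase Cyp51, the C4 decarboxylase Nsdhl and the isomerase Ebp had log2 fold changes of 0.34, 0.09, 0.26 and 0.05 against B6, with adjusted p-values from 0.48 to 0.905. Against 129/Sv these values were 0.11, 0.03, -0.17 and -0.11. Hsd17b7, the 3-ketosterol reductase, was under the array median on every array, with 219.9 to 296.9 in null glands, 240.6 to 469.2 in B6 glands and 258.9 and 340.2 in 129/Sv glands.

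Among the regulators, Srebf2 had 2411, 2517.4 and 2110.8 in null glands, 1914.5, 1911.1, 1959 and 2036.3 in B6 glands and 1809.5 and 1928 in 129/Sv glands. Every null array lay above every wild-type array, yet the difference did not pass. Null glands had a log2 fold change of 0.26 over B6 glands (adjusted p = 0.273, 95% interval 0.02 to 0.49). Over 129/Sv glands it was 0.32 (adjusted p = 0.313, 95% interval 0.04 to 0.60). A second Srebf2 probe set, above the array median on 6 arrays, gave 0.12 and -0.08. Srebf1 had 3658.8, 4441.5 and 3639.6 in null glands, 3246, 3087.7, 3832 and 3672.5 in B6 glands and 3495.5 and 3992.1 in 129/Sv glands, overlapping groups with a log2 fold change of 0.12 against the mean of both strains (95% interval -0.12 to 0.35, adjusted p = 0.718).

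Of the 10 fatty acid genes, 8 were tested, and Elovl5, above, was the one that passed. Acly, the citrate lyase that supplies acetyl-CoA, had 13252.8, 14277.2 and 12882.5 in null glands, 12798.1, 15192.9, 11621.7 and 12568 in B6 glands and 12003 and 11981.1 in 129/Sv glands. Its interval against the mean of both strains was -0.08 to 0.30 around a log2 fold change of 0.11 (adjusted p = 0.68). Scd1, a stearoyl-CoA desaturase, had 2078.9, 2188.4 and 2352.6 in null glands, 2016.9, 2373.8, 1643.9 and 2132.7 in B6 glands and 2008 and 2125.6 in 129/Sv glands, with an interval of -0.16 to 0.37 against the mean of both strains. Scd2, its close relative, had 12986.7, 13035.1 and 14847.3 in null glands, 10798.5, 14261.8, 14547.2 and 14474.6 in B6 glands and 9481 and 16802.9 in 129/Sv glands, so that the 129/Sv pools alone spanned all others. Fasn, the fatty acid synthase, had 2760.3, 2766 and 2412.6 in null glands, 2150.3, 1862.1, 2116 and 2409.1 in B6 glands and 2436.1 and 3447.6 in 129/Sv glands. The null arrays lay above the B6 arrays and within reach of 129/Sv, with a log2 fold change of 0.31 against B6 (95% interval 0.02 to 0.60) that did not pass (adjusted p = 0.289). Fasn was also lower in B6 than in 129/Sv without passing (-0.44, adjusted p = 0.128).

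Elovl6, which elongates palmitate, had 533.7, 673.6 and 631.6 in null glands, 463.5, 483.6, 328.3 and 339.5 in B6 glands and 405.4 and 442.3 in 129/Sv glands. All null arrays were above all wild-type arrays, but the difference of 0.55 against the mean of both strains did not pass (adjusted p = 0.383). Elovl6 was tested only because 2 null arrays exceeded their array median, and its second probe set ran the other way (-0.32). Me1, the malic enzyme that supplies NADPH, had 601.9, 648.1 and 775.5 in null glands, 604.3, 586.9, 658 and 532.2 in B6 glands and 828.3 and 935.8 in 129/Sv glands, with the 129/Sv arrays highest (-0.56 for B6 against 129/Sv, adjusted p = 0.182). Fads1, the delta-5 desaturase, exceeded the array median on 2 arrays, and its 852.8 on null array 3 stood beside 347.6 to 540.9 on all others. Fads2, the delta-6 desaturase, had 315.6 to 517.8 in null glands, 338 to 528.9 in B6 glands and 329.3 and 344.2 in 129/Sv glands. Acaca, the acetyl-CoA carboxylase, had 153.3 to 264 in null glands, 214.8 to 316.4 in B6 glands and 158 and 178.8 in 129/Sv glands, all under the array medians.

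Over the 26 tested genes, the median log2 fold change of null glands was 0.17 against B6, where all genes tested had 0.02, with 21 of 26 positive (80.8%, against 54.1% of all genes). Against 129/Sv the median was 0 beside 0.01, with 13 of 26 positive. For B6 against 129/Sv it was -0.14 beside -0.01, with 7 of 26 positive (26.9%, against 48.5% of all genes). Both unequal splits use the same B6 arrays and cannot be read as separate results. The median against B6 was 0.08 without null array 2 and 0.25 without B6 array 1.

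The sterol synthesis genes varied between pools of the same group. Each value was set against the mean of its own group on the log2 scale, a description with no test. On null array 2, 13 of 15 sterol synthesis genes were above their group mean, with a median deviation of 0.22, while 51.5% of all genes were above and their median was 0.01. On null array 3, 4 of 15 were above and the median was -0.24, and on null array 1, 6 of 15 with -0.07. Msmo1 (0.74), Idi1 (0.65), Sqle (0.51) and Pmvk (0.50) deviated most on null array 2. On B6 array 1, 12 of 15 were above their group mean with a median of 0.24 (54.7% and 0.03 for all genes), led by Fdft1 (0.64), Sqle and Idi1 (0.55 each) and Fdps (0.52). On B6 arrays 2, 3 and 4 the counts were 4, 10 and 3 of 15, with medians of -0.12, 0.04 and -0.12.

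Other probe sets of the same genes repeated part of this pattern. The second Fdft1 probe set had 2352.8 on B6 array 1 and 1196.1 to 1265.4 on the other B6 arrays, but on null arrays 1, 2 and 3 it had 1932, 1762.3 and 1290.2, so null array 2 was not the highest. A further Hmgcs1 probe set had 2609.1 on null array 2 with 1561.9 and 1842.8 on the other null arrays, and 2636.7 on B6 array 1 with 1252 to 1548.6 on the other B6 arrays. The dimmest Hmgcs1 probe set had 1239.6 on null array 2 with 993 and 712.9 on the other null arrays, but was higher on B6 array 3 (1209.2) than on B6 array 1 (1108.2). These probe sets read the same RNA pools and are no separate replicates. Fatty acid genes did not share it, with 4 of 8 above their group mean on null array 2 and 5 of 8 on B6 array 1 (medians 0.01 and 0.02). Of the regulation and transport genes Srebf1, Srebf2 and Stard4, 3 of 3 were above on null array 2 (median 0.19) and 0 of 3 on null array 3, and 1 of 3 was above on B6 array 1 (median -0.03). Among other sterol genes 9 of 17 were above on null array 2 and 13 of 17 on B6 array 1 (medians 0 and 0.10). Whether the sterol genes differ from these lists was not tested. The immediate early genes Fos and Egr1 were also high on null array 2, at 8513.1 and 9407, with 1036.7 to 1122.7 and 1777.1 to 1839.1 on the other null arrays. The summed olfactory neuron markers were highest on B6 array 1 (8496.1, with 2277.9 to 5880.3 on the other B6 arrays) and lowest of the null arrays on null array 2 (1709.4, with 1909.8 and 5386.9 on the others). Of these markers 4 were tested and 1 passed, Adcy3. It was higher in B6 than in 129/Sv (log2 fold change 1.25, adjusted p = 0.0219), beside 2.91% of all genes higher. The part of these in the pattern was not tested.

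**Figure D3:**
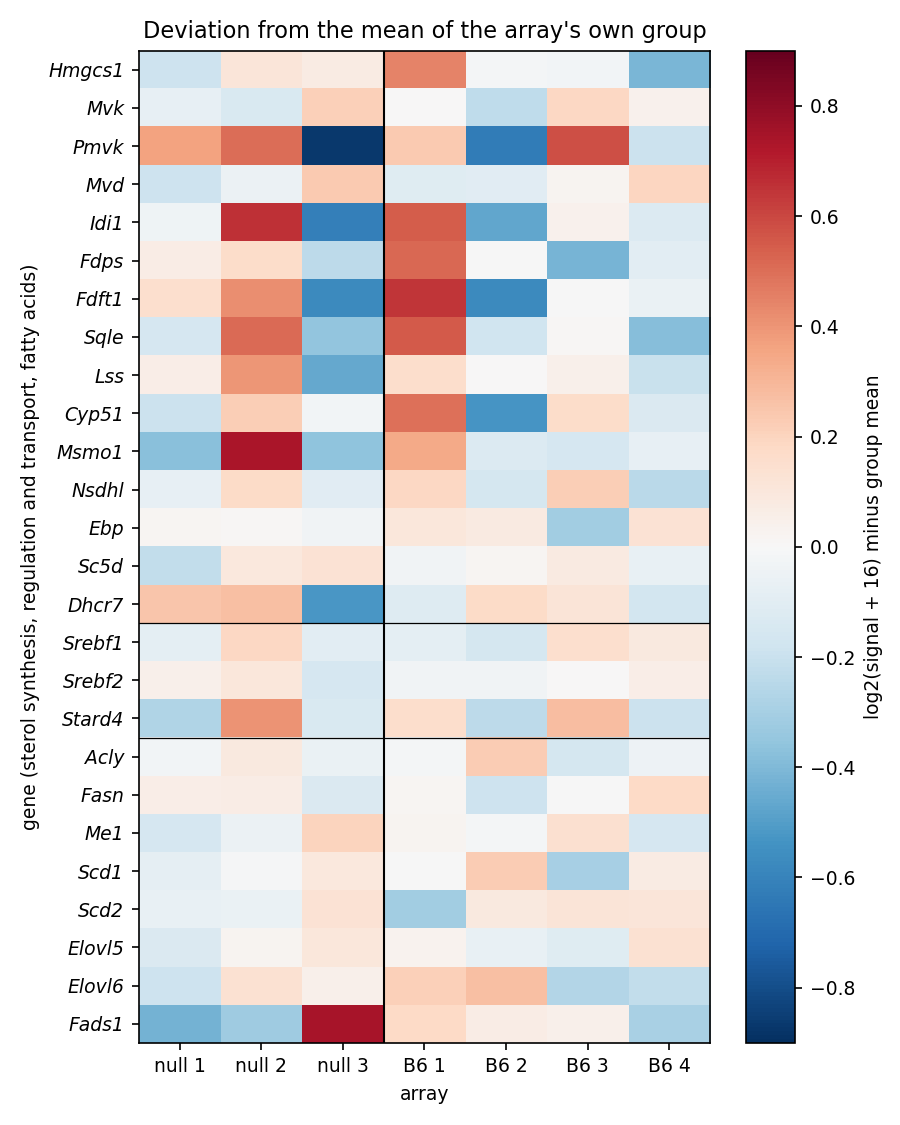
Deviation of each gene on each array from the mean of that array's own group, in log2(signal + 16), with red above and blue below. Null array 2 and B6 array 1 are red for most sterol synthesis genes in the upper block, null array 3 is mostly blue, and the fatty acid genes in the lower block do not follow. The 2 arrays of 129/Sv mirror each other by construction and are not drawn.

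Other genes of both pathways were taken from a list of 72. Of 30 further sterol genes, 20 were on the array and 17 were tested. In null glands 1 was higher than in B6 (Apoe, beside 1.43% of all genes higher), 1 higher than in 129/Sv (Abca1, beside 1.44%) and 2 higher than the mean of both strains (both of these, beside 0.788%). In these comparisons 0 were lower in limma. Apoe, the apolipoprotein that carries cholesterol out of cells, had 18920.6, 17211.6 and 19959.9 in null glands, 10611.5, 10488.7, 10719.8 and 7983.8 in B6 glands and 17192.4 and 14414.1 in 129/Sv glands. It rose 1.89-fold against B6 (log2 fold change 0.92, SE 0.113, adjusted p = 0.000496), with B6 also lower than 129/Sv (-0.67, SE 0.128, adjusted p = 0.00619). Its call against the mean of both strains (0.58, adjusted p = 0.019) was lost without null array 1, 2 or 3 (0.103, 0.0508 and 0.113) and without 129/Sv array 2 (0.0906). The strain call was lost without 129/Sv array 1 (0.122).

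Abca1, the transporter that exports cholesterol to apolipoproteins, had 3658.1, 3152.1 and 3004.8 in null glands, 2407.8, 2482.4, 2619.9 and 1748.4 in B6 glands and 1971.4 and 1893.7 in 129/Sv glands. On this probe set, its brightest, all null arrays lay above all wild-type arrays. Abca1 rose 1.68-fold against 129/Sv (log2 fold change 0.75, SE 0.167, adjusted p = 0.032) and 1.55-fold against the mean of both strains (adjusted p = 0.0359), and did not pass against B6 (0.51, adjusted p = 0.0736). Without any 1 of the null or 129/Sv arrays both calls were lost, with adjusted p-values from 0.0652 to 0.239 against 129/Sv and from 0.0704 to 0.216 against the mean. Macrophages express Apoe and Abca1 strongly. Lyz2, a macrophage and gland lysozyme, was also higher in null than in B6 glands (log2 fold change 0.50, adjusted p = 0.012). It was lower in B6 than in 129/Sv glands (-0.42, adjusted p = 0.0363), with null against 129/Sv at 0.08 (adjusted p = 0.851). Of the 5 blood and immune markers tested, 2 had positive and 3 had negative log2 fold changes against B6. The summed signal of 9 blood and immune markers, 5 of them tested, ran from 46815.6 to 58413.8 in null glands, from 33715.3 to 42529.3 in B6 glands and from 45050.5 to 62879.9 in 129/Sv glands. Most of it came from Lyz2, with 31182.8 to 36646.1 in null, 22601 to 26705.2 in B6 and 29141.3 and 35654.3 in 129/Sv glands. Jchain gave most of the rest, with 11298.6 to 18680.6 in null, 5861.3 to 15899.3 in B6 and 13551.2 and 24261.9 in 129/Sv glands. The defining macrophage marker Cd68 was under the array median on every array. It had 358.9 to 467.9 in null glands, 350.6 to 493 in B6 glands and 264.6 and 397.2 in 129/Sv glands. The 7 ciliated cell markers on the array summed to 19690.3 to 20754.2 in null glands, 12366.9 to 15394.1 in B6 glands and 13700.5 to 16061 in 129/Sv glands, also with every null array highest. Of these 7, 4 passed as higher in null than in B6 glands (Dnah5, Tppp3, Lrrc23 and Rsph1, with log2 fold changes from 0.56 to 0.80), beside 1.43% of all genes. Against 129/Sv 0 of 7 passed in limma, with 6 at an unadjusted p under 0.05 (85.7%, beside 12.1% of all genes). Of the calls against B6, Dnah5 held in all 23 other settings. Rsph1 was lost in 8 of 23, Tppp3 in 5 of 23 and Lrrc23 in 4 of 22. The part of immune and ciliated cells in these differences was not tested, and in whole glands more cells of a type cannot be told apart from more RNA per cell.

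Of 42 further fatty acid and lipid genes, 34 were on the array and 24 were tested. Against B6, 2 were higher (Acsl4 and Elovl7) and 1 lower (Lpin1) in null glands, where 1.43% of all genes were higher and 1.42% lower. Against 129/Sv 0 of 24 passed in limma, with 5 at an unadjusted p under 0.05 (20.8%, beside 12.1% of all genes). Acsl4, which activates arachidonic acid, had 3306.6, 4503 and 3773.2 in null glands, 2382.6, 2388.7, 2560.3 and 2782.1 in B6 glands and 4370.9 and 5583.5 in 129/Sv glands. It was 1.51-fold higher in null than in B6 glands (log2 fold change 0.60, SE 0.126, adjusted p = 0.0217) and 1.95-fold lower in B6 than in 129/Sv glands (adjusted p = 0.000998). For its remaining probe sets the log2 fold changes over B6 were 1.17 and 0.75. The call against B6 was lost without null array 2 or 3 (0.123 and 0.0796) and without B6 array 2 (0.0506).

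Elovl7, an elongase of saturated very long chains, had 540.5, 634.2 and 826.3 in null glands, 251.8, 113.8, 267.7 and 285.1 in B6 glands and 625.1 and 701.6 in 129/Sv glands. It was 2.88-fold higher in null than in B6 glands (SE 0.35 on the log2 scale, adjusted p = 0.034), with B6 signals under the array medians and the size of the fold uncertain. It exceeded the array median on 4 arrays, none of them B6, so it was tested only through the groups where it is high. This call was lost with no filter on low signals (adjusted p = 0.0528), in a fit of only null and B6 glands (0.0652), without null array 1, 2 or 3 (0.0837, 0.116 and 0.164) or either 129/Sv array (0.0541 and 0.0573). Elovl7 was lower in B6 than in 129/Sv (-1.54, adjusted p = 0.0352), a call lost with no filter (0.0558), in a fit of only the strains (0.131), without null array 1, 2 or 3 (0.0572, 0.0608 and 0.0587) or 129/Sv array 1 or 2 (0.177 and 0.25).

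Lpin1, a phosphatidate phosphatase of glycerolipid synthesis, had 2519.7, 2746.3 and 2855.2 in null glands, 4092.4, 3770.5, 5499.9 and 5247.5 in B6 glands and 1995.3 and 3294.2 in 129/Sv glands. It was 1.7-fold lower in null than in B6 glands (log2 fold change -0.76, SE 0.168, adjusted p = 0.0285) and 1.79-fold higher in B6 than in 129/Sv (adjusted p = 0.0183). The call against B6 was lost without null array 1, 2 or 3 (0.123, 0.0984 and 0.0804) and without B6 array 3 or 4 (0.0802 and 0.0746), and the strain call without 129/Sv array 1 (0.305). A second Lpin1 probe set gave smaller log2 differences, of -0.51 for null against B6 and 0.42 for B6 against 129/Sv. With probe sets that can match several transcripts left out it stood for the gene, and both calls were lost (adjusted p = 0.192 and 0.32). Dgat2, which completes triglycerides, was 2.09-fold lower in B6 than in 129/Sv (adjusted p = 0.0102), with 850.5, 705.2 and 704.5 in null glands, 535.9, 428.3, 618.6 and 608.2 in B6 glands and 1078.3 and 1231.5 in 129/Sv glands. Its second probe set, of nearly equal brightness, gave -0.31 for the strains. It stood for the gene without null array 1, 2 or 3 and without 129/Sv array 1 or 2, where the call was lost (adjusted p = 0.573, 0.57, 0.547, 0.71 and 0.81).

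**Figure D4:**
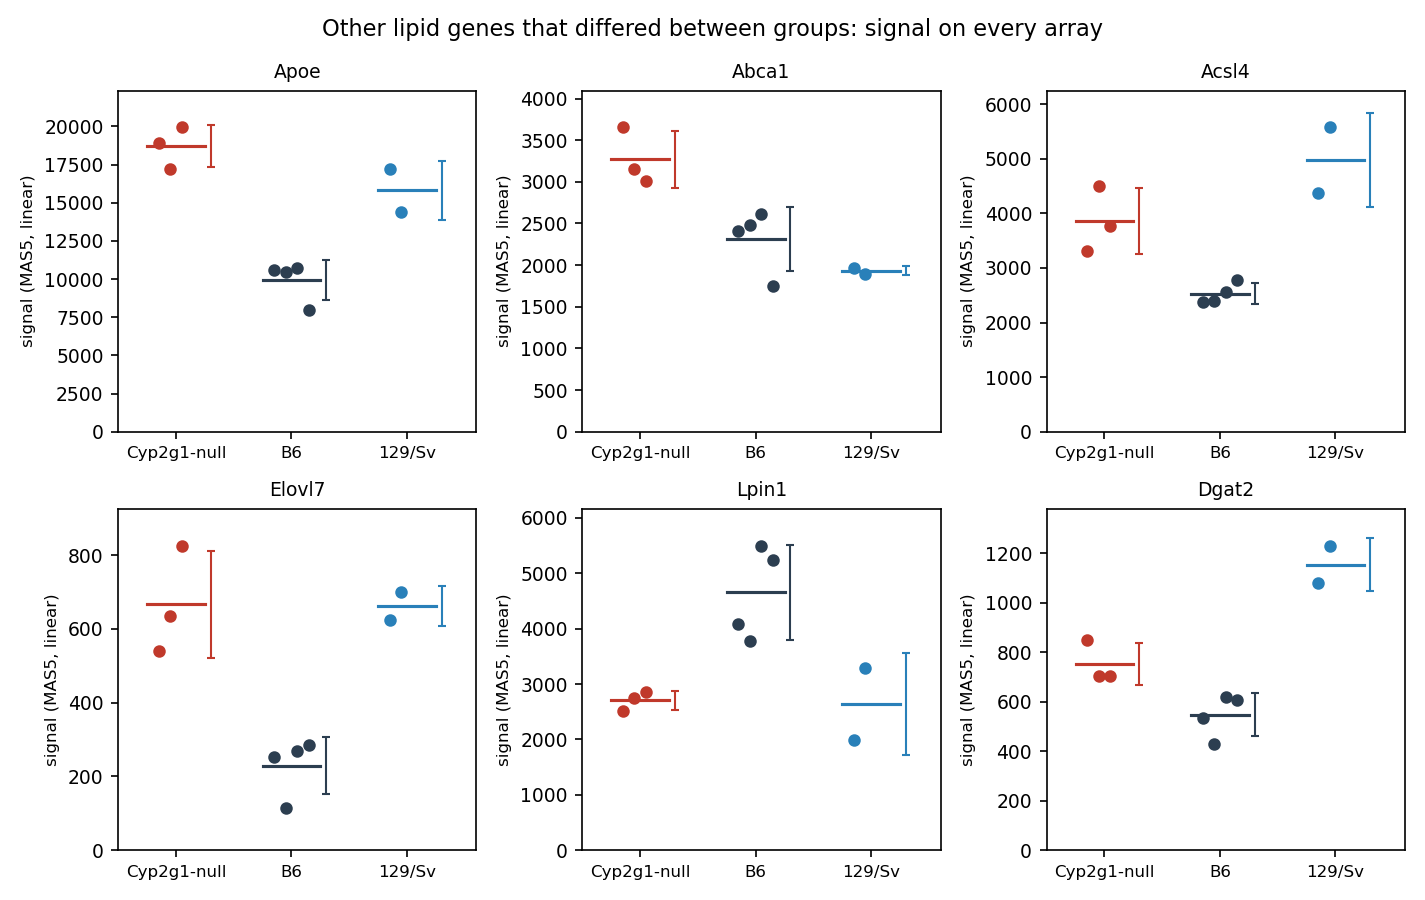
MAS5 signal on a linear axis for the 6 further lipid genes that passed in at least 1 comparison, with 1 point per array, the group mean as a line and the SD as a bar. The brightest probe set of each gene is drawn. Null glands lie with 129/Sv for Elovl7 and Lpin1, above all wild-type arrays for Abca1, between the strains for Dgat2, and above B6 with some overlap with 129/Sv for Acsl4. For Apoe they lie above B6, and the lowest null array is only just above the higher 129/Sv array (17211.6 and 17192.4).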

How the data were processed

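RNA of the lateral nasal gland was measured on 9 arrays, grouped by the strain and genotype in the labels. The authors deposited linear signal intensities, made with MAS5 (no version stated) per the submitters' processing notes. The mean signal of an array, leaving out the top and bottom 2%, was 1500.6 in each case, so the arrays shared a common level. No detection calls were used, and the number of arrays limits the precision.

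Of 22690 probe sets, 64 controls were left out. Signals became log2(signal + 16). Probe sets had to exceed the array median on 2 or more arrays (12575 probe sets), and the brightest stood for its gene (7487 genes). Group means came from limma 3.58.1 under R 4.3.3, with lmFit and trended eBayes, the 3 groups sharing 1 estimate of the spread. The procedure was tested on simulated data.

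The members and gene lists were chosen with earlier results of these data known. Named are all members, further pathway genes that passed in a comparison, Cyp2g1, Obp1a, and marker lists by their sums and members that passed. Fos, Egr1 and the named markers that did not pass were named after their values were seen. Nothing in the labels gives a batch. Alternatives covered normalization, pseudocounts of 1 and 64, filters, probe set choice, moderation, array weights, a replicate block, fits of 2 groups, a threshold of 0.01 and each array left out.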

Additional observations from a re-analysis of the deposited data

Results flagged for a closer look

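Among the 26 tested genes, 3 had a B6 array far from the other B6 arrays, by a gap that chance gives in about 5% of groups of 4. Scd2 had 10798.5 on B6 array 1, below the 14261.8 to 14547.2 of the other arrays. Ebp had 3133.2 on B6 array 3, below 4118.2 to 4251.7. Msmo1 had 2051.8 on B6 array 1, above 1457 to 1537.3, and that array was also high for most other sterol synthesis genes.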

How the results depend on the processing

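The count of members called was 0 against the mean of both strains and against both strains in every setting run. Against B6 it was 1 in place of 2 with quantile normalization, no filter on low signals, eBayes without trend, the replicate block or only the groups compared, where Stard4 was lost, and with a filter at the 75th percentile, which left Stard4 untested, and 0 at a threshold of 0.01. Against 129/Sv it was 0 in place of 1 when probe sets of a gene were averaged. With each array left out, the members called ran from 0 to 2 against B6, from 0 to 1 against 129/Sv and from 1 to 4 for B6 against 129/Sv (1 without 129/Sv array 1). No call of a named gene reversed its direction.

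Over all genes, the calls with each array left out ran from 101 to 472 against B6, 65 to 202 against 129/Sv, 30 to 196 against the mean, 201 to 559 between the strains and 3 to 31 against both strains. With eBayes without trend 115 genes passed against B6, 93 against 129/Sv, 35 against the mean and 4 against both, in place of 213, 165, 96 and 15. At a threshold of 0.01 these were 83, 65, 28 and 2, with 202 between the strains in place of 407. With array weights 364 passed against B6, 191 against the mean and 28 against both. With probe sets one by one 256 passed against 129/Sv, 154 against the mean and 653 between the strains. With no filter 7 passed against both. With equal array medians the genes against 129/Sv split into 86 higher and 76 lower (108 and 57 in the report's fit), and those against the mean into 47 and 48 (59 and 37).

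Arrays with the same replicate number had deviations that correlated little (from -0.087 to 0.104). The deviations are taken from means of few arrays, so they cannot show whether such arrays shared a batch. With the replicate block 155 genes passed against B6, 161 against 129/Sv, 83 against the mean and 330 between the strains. Without trend, the calls of Apoe and Abca1 against the mean, Abca1 against 129/Sv, Acsl4 and Lpin1 against B6, and Lpin1 between the strains (adjusted p = 0.0752) were also lost. Among members the block removed the 2 Stard4 calls (adjusted p = 0.15 against B6 and 0.0958 between the strains), and among the other lipid genes those of Elovl7 against B6 (0.051) and Lpin1 between the strains (0.0686). Averaged probe sets ended the Abca1 calls (0.0534 against 129/Sv, 0.0728 against the mean) and the strain calls of Dgat2 and Lpin1 (0.0535 each), and a fit of only the strains that of Dgat2 (0.576). The median change of the members stayed between 0.08 and 0.25 against B6 and between -0.25 and -0.07 for B6 against 129/Sv over 23 other settings. Against 129/Sv it was -0.16 without 129/Sv array 1 and 0.133 without array 2. A fit with 1 129/Sv array takes its spread from the other groups. The filter left Acaca, Hsd17b7 and Fads2 out of the report's fit. With no filter on low signals they were tested and 0 passed, at signals mostly under the array median.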
